A study of Rattus norvegicus with 15 samples.

Results

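Regions with a central dip are short stretches of the rat genome in which the log2(MeDIP/input) ratio was lower in the middle than on both sides. They were selected on the measured ratios. Probes were strung into a run wherever neighbours lay no more than 500 bp apart. Each run with 8 to 12 probes was cut by position into 3 parts of equal length, each holding at least 2 probes. A run was taken as a member when its middle part lay at least 0.5 below both outer parts in the mean over all 15 arrays. Of 17668 runs on the array, 12699 met the criteria on size and division, and these are called eligible runs here. Of the eligible runs, 1583 (12.5%) were members, with 15470 probes.

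The samples were peripheral blood DNA of male Sprague Dawley rats aged 20 weeks, with 1 array per rat and 3 rats in each of 5 groups. The control group received citric buffer and distilled water. The other 4 groups all received streptozotocin at 45 mg per kg, which makes rats diabetic. The DR model (diabetic retinopathy model) group was then given distilled water only. The CaD group received calcium dobesilate, a drug used in diabetic retinopathy, at 0.25 g per kg and day, and the LTF group received Luo-tong formula, a herbal preparation, at 2 g per kg and day. Both of these groups also received insulin at 1.5 IU per day, which the DR model did not, so an effect of either agent and an effect of insulin cannot be told apart. A further group received another Chinese formula, for which the labels used here give no name, dose or insulin. The tissue is peripheral blood, so a change within cells and a change in the mix of blood cells cannot be told apart.

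In methylated DNA immunoprecipitation (MeDIP), an antibody against methylated cytosine pulls down methylated fragments, and their amount is compared with that of untreated input DNA. In mammalian genomes most CpG sites are methylated, while CpG islands and active promoters and enhancers are commonly low in methylation, and MeDIP ratios are lower there than in the methylated sequence around them. The assay reads fragments rather than single cytosines, and its ratio also depends on CpG density and on how well each probe hybridises. Positions below are on the rn4 assembly of the rat genome, as the files give them. Probes carry no gene names in the files, and the gene and sequence tables at hand are of another assembly, so which genes lie at these positions was not analysed here and no sequence is shown.

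The arrays were scanned in 6 scans on 3 days, and the groups were spread unevenly over them. The LTF arrays had a scan and a day of their own, control replicate 1 and DR model replicate 2 were each scanned alone, control replicates 2 and 3 shared a scan with DR model replicate 1, and DR model replicate 3 shared one with CaD replicates 1 and 2. CaD replicate 3 was scanned with the other formula. Between any 2 arrays the log2 ratios had a correlation of 0.814 to 0.954. The scanner software marked 235 to 10700 spots per array as outliers, and those spots were left out; the LTF arrays had the most, 7186, 10700 and 9620. As a result 219 members (13.8%) had at least 1 probe with no value on all 3 arrays of the LTF or of the DR model group, and their parts were averaged over different probes in the 2 groups.

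Averaged over the members, the ratio was low in every ninth of the middle part, which need not hold within a single region. Over all members, the mean log2 ratio of probes in the 9 equal ninths of a run was 0.06, 0.10 and 0.04 in the left part, -0.90, -1.11 and -0.95 in the middle part, and -0.00, 0.16 and 0.15 in the right part. The steps at both borders of the middle part are placed there by the rule. In the eligible runs that had neither a dip nor a rise, the same ninths stayed between -0.13 and -0.03. In the single groups the fifth ninth was at -1.21 for control, -1.17 for the DR model, -1.01 for CaD rats, -1.05 under the other formula and -1.11 under LTF.

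**Figure D1:**
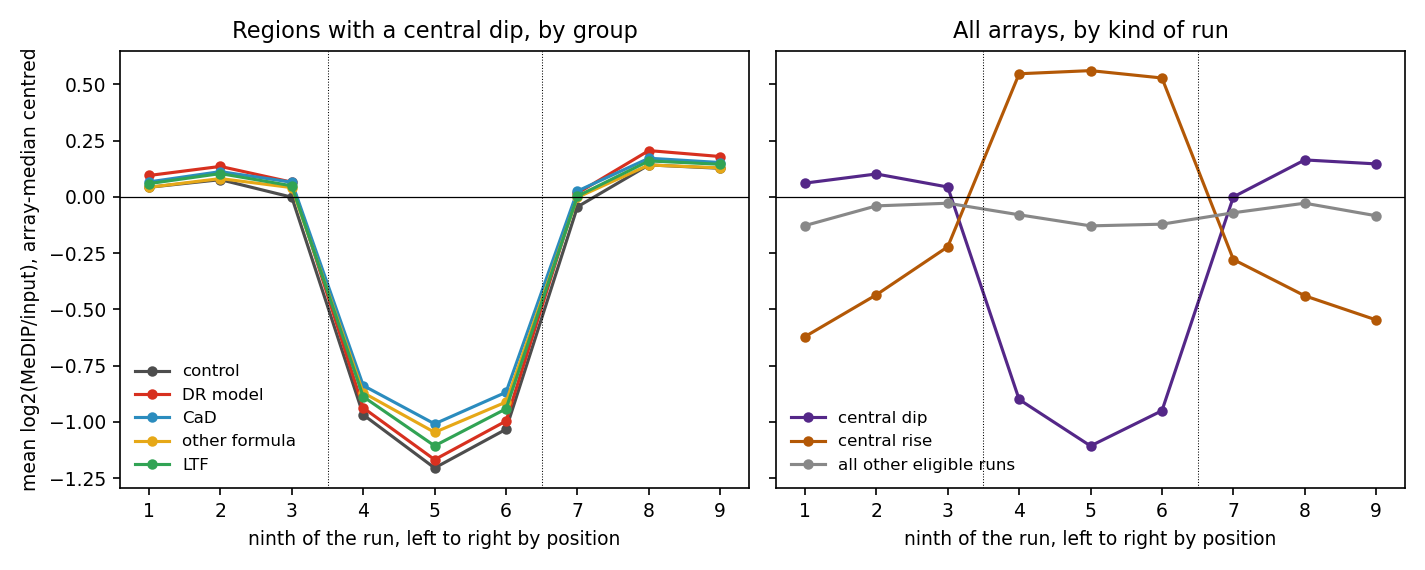
Mean log2(MeDIP/input) of the probes in each ninth of a run, from left to right by position, with dotted lines at the borders of the middle part. The left panel gives the 1583 regions with a central dip in the 5 groups (3 arrays each), and the right panel gives, over all 15 arrays, these regions, the 964 runs with a central rise by the mirrored rule, and all other eligible runs. The 5 group curves lie close together, and the middle ninth of the dip regions is at -1.11 over all arrays.

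Dip depth, the mean of both outer parts minus the middle part, had a median of 1.02 on the log2 scale over the members and ran from 0.52 to 3.18. It reached 1 or more in 841 members, 1.5 or more in 209 and 2 or more in 25. The flank level, the mean of both outer parts, had a median of 0.14, close to the array median at 0, while the middle part had a median of -0.98. In 616 members (38.9%) the middle lay below the array median and both flanks above it. In 385 members both flanks were also below 0, in 529 the flanks lay on opposite sides of 0 with the middle below it, and in 53 the middle itself was above 0. The members therefore hold dips cut into high, medium and low ratios alike. The outer parts were within 0.5 of each other in 961 members, and the rest were uneven dips with flanks of different height. Member regions had a median of 10 probes and a median width of 1672 bp, close to the 1670 bp of all eligible runs.

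Read on the same 15 arrays that chose them, so with counts raised by the choice, most members showed the dip on single arrays. The middle part was below both outer parts on all 15 arrays in 1318 members (83.3%), and at least 0.5 below both on all 15 in 370 (23.4%). On a single array, 65.6% (control replicate 1) to 85.2% (DR model replicate 1) of the members met the threshold. The rule was also applied to the 3 arrays of 1 group at a time and then read on the 12 arrays it had not used. Control arrays alone chose 1746 runs, with a median dip of 1.07 on those arrays and 0.94 on the other 12, where 73.1% met the threshold again. The DR model arrays chose 1799 runs, of which 73.0% met it on the other 12. With CaD, other formula or LTF arrays as the source these shares were 84.3%, 85.0% and 76.1%, of 1512, 1497 and 1660 runs. The rule was met in each of the 5 groups separately by 865 members (54.6%).

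The 6 deepest dips were 2.39 to 3.18 deep, and in 5 of them the SD within groups was above the median SD of 0.25 over the members. The deepest lay at chr13:12904622-12906219, with 9 probes. Its dip depth was 2.61, 3.16 and 3.96 in the control rats, 4.06, 2.44 and 2.58 in DR model rats, 3.09, 3.29 and 2.89 in CaD rats, 3.05, 3.22 and 2.70 under the other formula, and 3.73, 3.24 and 3.69 under LTF. The groups overlapped throughout. Its right part was at 1.1, its left part at -0.25 and its middle, of 2 probes, at -2.76. One of these 2 probes was not well above background in the MeDIP channel on any array, so its ratio is uncertain.

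The region at chr7:120429591-120431267 had a mean dip of 2.81 and flanks at the array median (0.06). Only a share of 0.23 of its middle spots was well above background in MeDIP. Its dip depth was 1.79, 2.48 and 3.13 in control and 3.25, 3.27 and 2.53 in the DR model, and it ranged from 2.30 to 3.30 in the 3 treated groups. The region at chr8:80377498-80379234 (mean dip 2.72) had the least even values. It stood at 4.03 and 4.16 on other formula replicates 1 and 2 and at 3.98 on CaD replicate 3, against 1.74 to 3.17 on the other 12 arrays. The higher of its 2 middle probes was left out as an outlier on 1 CaD, 2 other formula and 1 LTF arrays, and the lower was never well above background. With outlier spots kept the mean dip was 2.31.

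The other deep regions were chr11:76686138-76687698 with a mean dip of 2.71, chr6:24060425-24062074 with 2.51 and chr15:66390614-66392308 with 2.39. Those on chromosomes 11 and 6 each held 1 middle probe never well above background in MeDIP, so their depths are uncertain. The region on chromosome 15 was the most even of the 6 deepest. Its dip depth was 2.47, 2.65 and 2.31 in control, 2.90, 2.78 and 2.30 in DR model rats, 2.19, 2.15 and 2.34 in CaD rats, 2.58, 2.12 and 2.06 under the other formula and 2.14, 2.46 and 2.42 under LTF, and every one of its middle probes was well above background on some array. In all 6 the middle part was lower than both flanks on all 15 arrays.

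**Figure D2:**
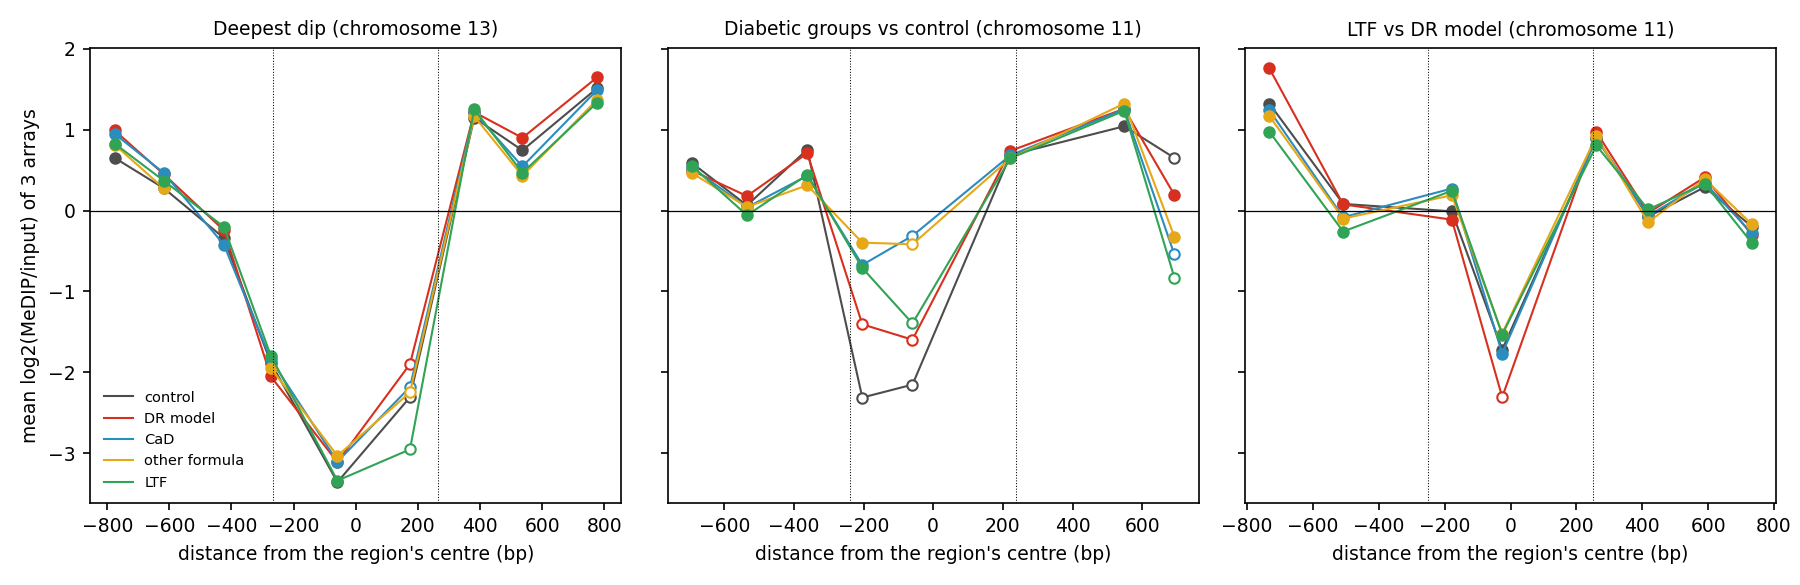
Mean log2(MeDIP/input) of each probe against its distance from the region's centre in bp, in the 5 groups (3 arrays each), for the regions at chr13:12904622-12906219, chr11:82518031-82519460 and chr11:44286738-44288247. Dotted lines mark the borders of the middle part, and open circles are probes that were not well above background in the MeDIP channel on any array of the group. In the middle panel the groups lie farthest apart at the 2 lowest probes, while the rightmost middle probe lies between 0.65 and 0.74 in all groups. Both of the lowest probes have open circles in control and the DR model, and 1 of them has open circles in all groups.

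At the threshold the rule separates regions that are alike. The members nearest inside it were chr14:7432971-7434603, chr1:200457516-200459212 and chr5:172721206-172722513, where the middle part lay 0.50 below the lower flank and the mean dip depths were 0.60, 0.72 and 0.80. The eligible runs nearest outside were chr5:91722697-91724133, chr1:265748015-265749585 and chr1:131539857-131541295, also 0.50 below the lower flank, with dip depths of 0.66, 0.60 and 0.68. Between 0.5 and 0.55 there were 169 members, and 198 eligible runs lay between 0.45 and 0.5.

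Some dips came in large part from 1 middle probe. The middle part had 2 probes in 413 members, 3 in 989 and 4 in 181. When the lowest probe of the middle part was left out, 704 members (44.5%) still had a middle at least 0.5 below both flanks. This step raises the middle by construction, so the members that no longer passed are not all dips of 1 probe. At chr14:7432971-7434603 the distance to the nearer flank only went from 0.50 to 0.47. At chr1:200457516-200459212, for example, the distance to the nearer flank fell to 0.07 without that probe, and at chr13:12904622-12906219 it stayed at 2.07.

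Probe length went with the dip. Probes on this array are 45 to 60 nucleotides long, and the mean log2 ratio over the whole array was 0.32 for the 84007 probes of 45 nucleotides and -1.01 for the 23710 probes of 60. In the members the mean probe length was 49.0 in the left part, 51.7 in the middle and 48.6 in the right, against 49.2, 49.4 and 49.1 in all eligible runs. Middle probes were longer on average than those of both flanks in 872 members (55.1%), against 29.5% of eligible runs, and shorter than both in 80 members (5.05%), against 17.7%. The runs with a central rise showed the reverse, with longer middle probes in 13.0% and shorter ones in 46.1%.

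The share of members rose with the length contrast, the mean probe length of the middle minus that of the outer parts. Where the middle was over 6 nucleotides shorter, 2.38% of eligible runs were members. Where it was within 1 nucleotide of the flanks, 9.63% were (310 of 3218), and where it was over 6 nucleotides longer, 33.9% were (304 of 898). Rises went the other way, from 26.7% to 1.89% between the same ends. Across runs, dip depth and length contrast correlated at 0.42 over all eligible runs and at 0.25 over the members (Pearson's r, a description; runs of one array are not independent, and the members were cut on the dip).

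**Figure D3:**
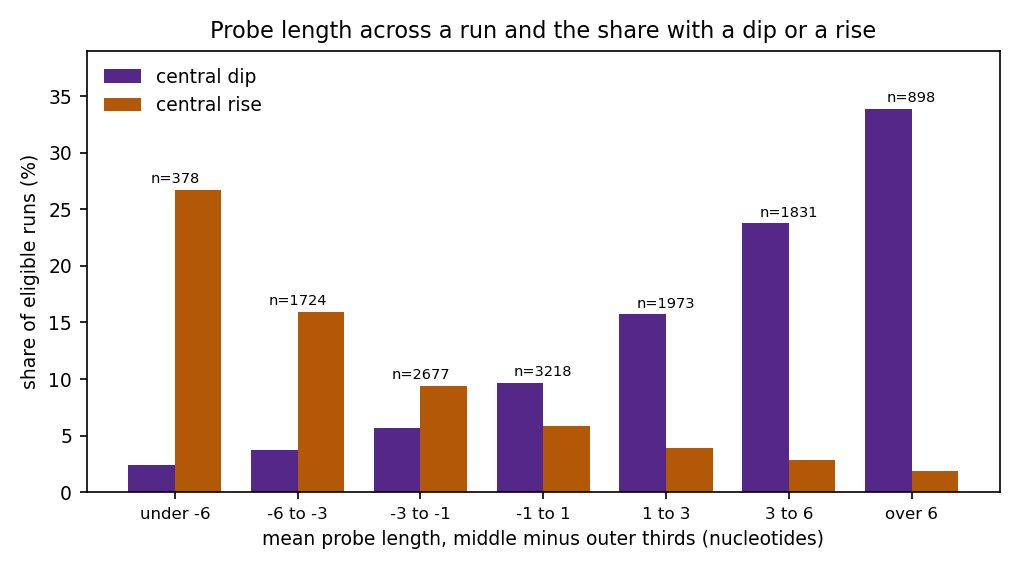
Share of eligible runs with a central dip and with a central rise, in percent, by mean probe length of the middle part minus that of the outer parts, in nucleotides. The number of eligible runs stands above each pair of bars. Dips go from 2.38% to 33.9% from left to right, and rises from 26.7% to 1.89%.

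Subtracting, array by array, the mean ratio of all probes of the same length left most dips in place but made them shallower. The median dip of the members went from 1.02 to 0.81, 1557 of the 1583 kept a dip above 0, and 942 (59.5%) still met the threshold. Counted afresh on these values, 1413 eligible runs met the rule. The 4 deepest after this step were chr13:12904622-12906219 (2.51), chr2:191941161-191942307 (2.35), chr8:80377498-80379234 (2.26) and chr7:120429591-120431267 (2.21). The region on chromosome 2 had middle probes of 45.5 nucleotides and flanks of 48.3 and 45.0, so its dip depth of 2.37 was almost unchanged, and 1 of its 2 middle probes was never well above background in MeDIP. The largest falls were at chr6:24060425-24062074, where 60.0-nucleotide middle probes stood between flanks of 45.0 and the dip went from 2.51 to 1.18, and at chr1:96527423-96529057, where it went from 0.89 to -0.37.

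Dips also occurred where all probes had 1 length. Of 256 eligible runs made only of 45-nucleotide probes, 24 (9.38%) were members and 22 (8.59%) had a rise. These 24 dips were 0.58 to 1.16 deep, with a median of 0.72, and lay in higher ratios, with a median flank of 0.51 and a median middle of -0.29. Whether CpG density or base composition, which go with probe length on such arrays, differ across the members was not tested, since the files hold no probe sequences.

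Each channel was dimmer in the middle in most members, though not in all. The MeDIP signal was lower there by a median of 1.87 on the log2 scale, and the input signal by 0.76. MeDIP was at least 0.5 lower in 1375 members, while in 389 members (24.6%) the input was higher in the middle than on the flanks. Among members, 71.1% of the middle spots and 91.1% of the flanking spots were well above background in MeDIP, against 84.8% and 87.8% in all eligible runs. In 439 members at least 1 middle probe was never well above background, and in 18 none ever was. The share of members rose with the input contrast too, from 4.10% where the middle input signal was more than 1 above the flanks to 22.8% where it was more than 2 below. With only probes well above background in both channels on at least 12 arrays, 955 of the members could still be divided, and 752 of these met the rule.

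Member dips were deeper on some arrays than on others, and this spread was larger within control and within the DR model than between groups. The median dip depth of the members was 0.92, 1.13 and 1.20 on the control arrays, 1.26, 1.12 and 0.97 in DR model rats, 0.96, 0.94 and 1.01 in CaD rats, 0.97, 0.96 and 0.98 under the other formula and 0.98, 1.09 and 1.01 under LTF. Group means were 1.08 ± 0.15 (SD, n = 3) for control, 1.12 ± 0.15 for the DR model, 0.97 ± 0.04 for CaD rats, 0.97 ± 0.01 under the other formula and 1.03 ± 0.06 under LTF, and each treated group overlapped the DR model. The interquartile range of all log2 ratios on an array, a measure of its contrast, was widest on DR model replicate 1 at 1.60, where the dip was deepest, and 1.20 to 1.55 on the others. After quantile normalisation, which gives all arrays the same distribution, the 15 medians lay between 0.94 and 1.07 and the group means were 0.99, 1.05, 1.04, 1.03 and 1.05 in the same order. The part of array contrast in the differences below was not tested apart from this scaling.

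**Figure D4:**
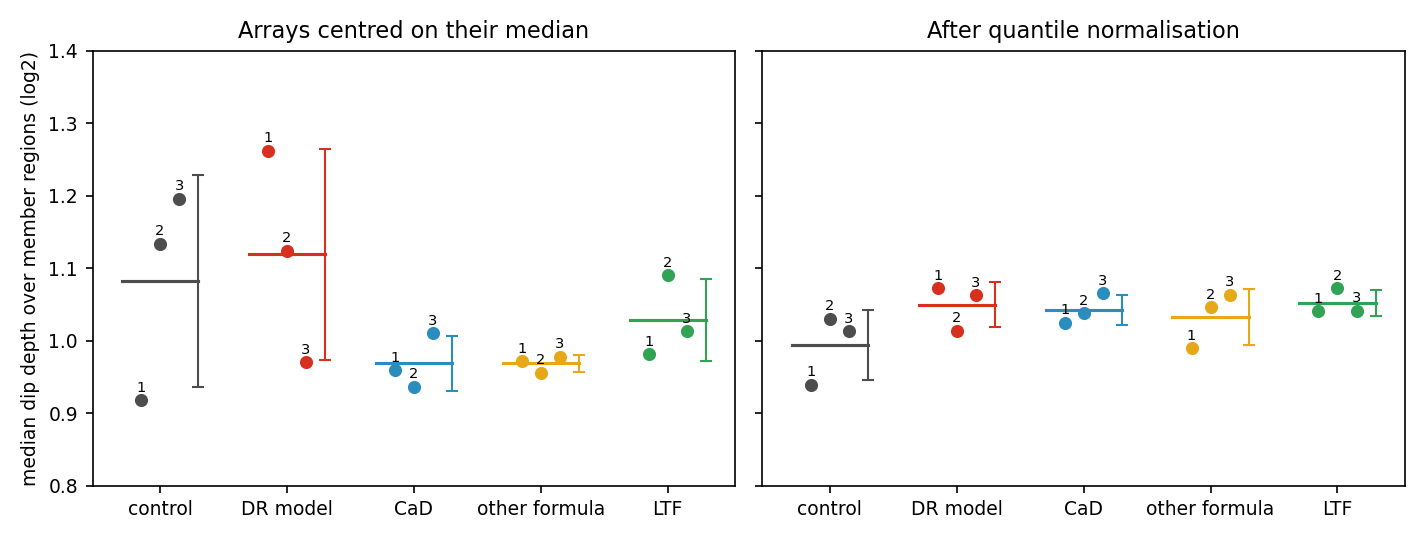
Median dip depth (log2) of the 1583 regions on each of the 15 arrays, by group, with arrays centred on their median (left) and after quantile normalisation (right). Numbers are replicates, lines are group means and bars are 1 SD (n = 3); the axis starts at 0.8. Values run from 0.92 to 1.26 on the left and from 0.94 to 1.07 on the right.

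Dip depth and flank level were compared between groups with limma over all eligible runs, and a region is called when its Benjamini-Hochberg adjusted p is under 0.05. The rule used the mean over all arrays and gave no group more weight than another. Each group's arrays still entered that mean, so a region could become a member through a group in which its dip was deep. Counts of deeper and shallower members are therefore not free of the choice of members. Comparisons with the DR model share its 3 arrays.

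Between the DR model and control no member was called in dip depth or in flank level. In limma none of the eligible runs was called for either measure (0% and 0%), with 161 members (10.2%, against 8.23% of eligible runs) at an unadjusted p under 0.05 for dip depth and 194 (12.3% against 11.5%) for flank level. The smallest adjusted p for a member was 0.19 for dip depth. It was shared by chr15:41553454-41555102, with dips of 2.28, 2.06 and 2.46 in control and 1.49, 1.51 and 1.00 in the DR model, and by chr1:200427008-200428769, with 1.60, 1.59 and 1.83 in control and 0.79, 1.04 and 1.09 in the DR model. In both, all control rats lay above all DR model rats. The differences in limma were -0.93 ± 0.18 and -0.70 ± 0.14 (SE), but each region holds 1 middle probe never well above background, so they rest in part on bounds, and under normexp they were -0.09 and -0.11. For flank level the leading regions were chr6:46551293-46553048, at 0.40, 0.38 and 0.48 in control and -0.10, 0.18 and -0.05 in the DR model, and chr1:147090388-147092022, both with an adjusted p of 0.11. Within the scan that held both groups (2 control arrays and 1 DR model array), 9 members were called for dip depth, 7 deeper and 2 shallower in the DR model, and 4 for flank level, in limma with a spread pooled over all arrays; 0.528% and 0.551% of eligible runs were called there. The lone DR model array is assumed to vary like the other groups, so these counts describe that array as much as the group.

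No member was called in dip depth for CaD or for the other formula against the DR model. For CaD no eligible run was called (0% for dip depth, 0% for flank level), with 268 members (16.9%, against 13.9% of eligible runs) and 274 members (17.3% against 15.1%) at an unadjusted p under 0.05. For the other formula 0.00787% of eligible runs were called for dip depth, none of them a member, with 277 members (17.5%, against 15.1% of eligible runs) at an unadjusted p under 0.05. For flank level 297 members (18.8% against 16.1%) were below it with the other formula. A member with 1 of the 2 smallest p in both comparisons was chr11:82518031-82519460, taken up below. At chr8:60609535-60611165, another leading region for CaD, dips were 1.50, 1.47 and 1.06 in the DR model and 0.68, 0.60 and 0.65 with CaD, with an adjusted p of 0.19 in limma.

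At chr4:33829944-33831625 the dip stood at 2.36, 2.08 and 1.89 with the other formula and at 0.68, 1.09 and 1.11 in DR model rats, which differ by 1.15 ± 0.18 (SE) with an adjusted p of 0.0536 in limma. The highest of its 3 middle probes had no value on any array of the other formula, and with outlier spots kept the difference was 0.09 with an adjusted p of 0.85. Across the members, 173 (10.9%) had a probe left out on all arrays of the other formula or of the DR model. With dim probes left out, 19 members were called in dip depth with the other formula, all shallower, beside 1.41% of the eligible runs left, and 29 in flank level, 27 of them lower, beside 1.98%.

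A single member was called for flank level with the other formula, against 0.063% of eligible runs. It was chrUn:25164053-25165834, on sequence not placed on a chromosome, with flanks of 1.26, 1.41 and 1.12 in the DR model and 0.68, 0.84 and 0.76 with the other formula, a fall of -0.51 ± 0.08 (SE; adjusted p of 0.045 in limma). Its flanks were 0.89, 0.74 and 0.76 with CaD (adjusted p of 0.063 in limma), 0.79, 0.84 and 0.84 with LTF and 1.04, 1.08 and 1.20 in control. All treated rats thus lay below all untreated ones there. With scan as a random block its adjusted p was 0.475 in limma. Counts for both treatments depended on DR model replicate 3: without it, 75 members were called for dip depth in each comparison and 137 (CaD) and 144 (other formula) for flank level. Of all eligible runs, 2.87% and 2.99% were then called for dip depth and 7.19% and 7.1% for flank level.

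LTF differed from the DR model in the dip depth of 20 members, 7 deeper and 13 shallower. This is 1.26% of the members against 1.48% of all eligible runs, a share near that of all runs. The 4 with the smallest p differed in direction. At chr1:200427008-200428769 the dip was 0.79, 1.04 and 1.09 in the DR model and 1.91, 1.69 and 1.82 with LTF, close to the 1.60, 1.59 and 1.83 of control, and it was 0.83 ± 0.14 (SE) deeper with an adjusted p of 0.016 in limma. Of its 3 middle probes 1 was never well above background in MeDIP, so its middle level, and with it the dip, is uncertain. The difference was 0.03 under normexp background correction (adjusted p of 0.813 in limma) and 0.19 in the authors' deposited values (0.193 in limma).

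At chr11:44286738-44288247 the DR model rats had dips of 1.74, 2.02 and 1.65 and the LTF rats 0.84, 1.14 and 0.77, a fall of -0.88 ± 0.15 (SE; adjusted p of 0.018 in limma), with control between them at 1.33, 1.38 and 1.28. One of its 2 middle probes carried the dip, at -2.31 in the DR model and -1.53 with LTF. That probe was not well above background on any DR model array and so is uncertain there. At chr5:142329664-142331266 the dip depth was near 0 in the DR model rats (0.28, -0.16 and 0.20) and 1.17, 1.05 and 0.97 with LTF. The difference was 0.96 ± 0.18 (SE), with an adjusted p of 0.022 in limma. Over all arrays the mean dip of this region was 0.60, with the middle 0.56 below the lower flank, close to the cut of 0.5. Its outer parts minus its middle came to -1.25 in the MeDIP signal and -1.85 in the input (log2, all arrays). Both signals were thus brighter in its middle, the input more so. The DR model rats lay below the cut of 0.5. On the arrays outside the LTF group the mean dip was also below 0.5, and the middle cannot lie farther below the lower flank than the dip depth. Without the LTF group the region would thus not be a member, so its membership rests on the LTF arrays. At chr8:111634522-111635940 the dip was 1.68, 1.33 and 1.21 in the DR model and 0.26, 0.73 and 0.53 with LTF (-0.90 ± 0.17 SE; adjusted p of 0.024 in limma), and a flank probe had no value on any LTF array. This last call was lost in 9 of 25 settings, with differences of -0.22 under normexp, -0.57 with loess and -0.17 in the authors' deposited values (adjusted p of 0.0995, 0.0698 and 0.267 in limma). Under normexp the differences at chr11:44286738-44288247 and chr5:142329664-142331266 were -0.44 and 0.51, and both were called. In each of these 4 regions the 2 groups did not overlap.

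The 3 LTF arrays were the only ones in their scan. With scan as a random block (correlation within a scan of 0.33) no member was called for dip depth in this comparison, and the adjusted p of these 4 regions in limma went to 0.17, 0.21, 0.21 and 0.22, so LTF and its scan cannot be told apart here. With quantile normalisation 20 members were called, 11 deeper and 9 shallower, and 13 were the same as before; with loess it was 10 and 9, in the authors' deposited values 21 and 27, and with normexp 8 and 102. Of all eligible runs these settings called 1.65%, 1.43%, 3.03% and 6.47%. Of the 20, 12 held a probe that was not well above background on every array of the LTF or DR model group (60%, against 66.3% of all members), and with dim probes left out 64 members were called, 10 deeper and 54 shallower, beside 4.79% of the eligible runs left. The number called moved from 2 to 89 (0.118% to 4.35% of eligible runs) as single arrays were left out. It was 2 or 3 without DR model replicate 1 or 2, 2 to 5 without any 1 LTF array, 8 to 12 without CaD replicate 1 or 2 or any 1 other formula array, 40 and 31 without control replicates 1 and 3, and 89 without DR model replicate 3.

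**Figure D5:**
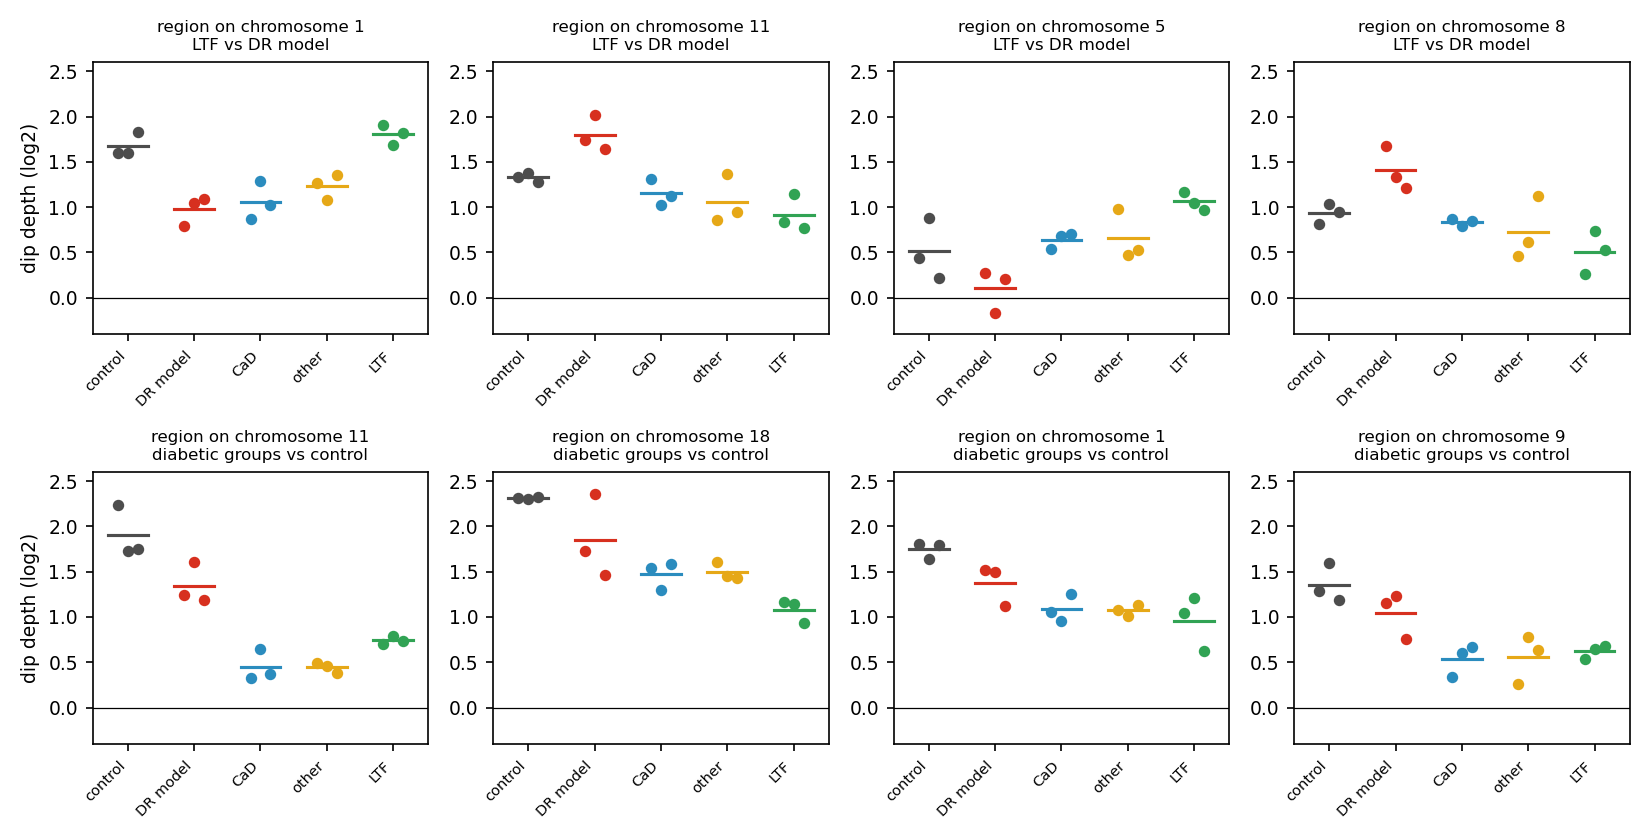
Dip depth (log2) on each array, with group means as lines (n = 3), for the 4 leading called regions, by p in limma, for LTF against the DR model (top) and for the diabetic groups against control (bottom). In the top row the LTF and DR model rats do not overlap in any region, and in the bottom row the control rats lie above the rats of the 3 treated groups in all 4.

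In flank level LTF differed from the DR model in 41 members, 13 higher and 28 lower, which is 2.59% of the members beside 1.95% of eligible runs. At chr2:204720412-204721962 the flanks were at 0.80, 0.88 and 0.61 in the DR model and 0.35, 0.27 and 0.36 with LTF (a fall of -0.44 ± 0.07 SE), and at chr5:71153758-71155400 they were at 1.29, 1.00 and 0.86 and 0.52, 0.52 and 0.36. The adjusted p was 0.014 and 0.015 in limma. Control lay between them in the first, at 0.52 to 0.56, and overlapped the DR model in the second, at 0.78 to 1.00.

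In the other 2 leading regions a flank probe was left out on all 3 LTF arrays. At chr14:83162319-83164016 flanks of 0.55, 0.53 and 0.43 in the DR model stood beside 0.08, 0.12 and 0.09 with LTF, and with outlier spots kept the difference went from -0.41 to -0.23 (adjusted p of 0.066 in limma). At chr6:12444706-12446183, the region with higher flanks in LTF (1.19, 1.30 and 1.22, beside 0.90, 0.83 and 0.81), it went from 0.39 to 0.03. Of the 41 called members, 8 had such a probe, against 11.5% of all members. With scan as a random block none was called. With quantile normalisation 13 were higher and 9 lower (1.15% of eligible runs called), and after subtraction of probe length 11 and 55 (3.26%). The count was 0 without DR model replicate 2, 1 without DR model replicate 1 and 166 without DR model replicate 3 (8.31% of eligible runs). It was 11 to 15 without any 1 LTF array and 18 to 23 without any 1 array of CaD or the other formula.

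The 4 diabetic groups together differed from control in the dip depth of 14 members, 2 deeper and 12 shallower, or 0.884% of the members beside 0.961% of eligible runs. The leading region, chr11:82518031-82519460, had dips of 2.24, 1.72 and 1.75 in control, 1.24, 1.61 and 1.19 in DR model rats, 0.32, 0.64 and 0.37 in CaD rats, 0.49, 0.46 and 0.38 under the other formula and 0.71, 0.79 and 0.73 under LTF. All control rats lay above all diabetic rats, and all DR model rats above all treated rats. The difference from control was -1.16 ± 0.12 (SE; adjusted p of 0.00071 in limma), and with scan as a random block it was the 1 member still called (adjusted p of 0.0019). All its probes are 45 nucleotides long, so its depth was the same after probe length was subtracted.

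The groups differed most at the dim probes of this region. Of its 3 middle probes, the rightmost read 0.69 in control, 0.74 in DR model rats, 0.68 in CaD rats, 0.65 under the other formula and 0.65 under LTF. The other 2 read -2.31 and -2.15 in control, against -0.67 and -0.31 with CaD. The first was well above background in MeDIP on 0 of 3 arrays in control and in the DR model. It was so on 2 arrays with CaD and on 3 with each formula. The second was well above background on no array, so its values are uncertain in every group. Those of the first are uncertain in control and in the DR model. The region's difference was -0.12 under normexp background correction (adjusted p of 0.257 in limma) and -0.22 in the authors' deposited values (0.0357 in limma).

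At chr18:24332252-24333808 the dip was 2.31, 2.30 and 2.33 in control, 1.73, 2.35 and 1.47 in DR model rats, 1.55, 1.29 and 1.59 in CaD rats, 1.61, 1.45 and 1.43 under the other formula and 1.17, 1.14 and 0.93 under LTF, with a difference of -0.84 ± 0.14 (SE; adjusted p of 0.025 in limma) for the diabetic groups. It was -0.23 under normexp (adjusted p of 0.0736 in limma) and -0.33 in the authors' deposited values (0.00358 in limma). Control and the DR model overlapped there through DR model replicate 2. At chr1:232623309-232625024 the dip was 1.81, 1.64 and 1.80 in control and 0.62 to 1.52 in the diabetic rats, and at chr9:19554475-19555924 it was 1.29, 1.60 and 1.19 beside 0.26 to 1.23 (adjusted p of 0.032 in limma for both). The last 2 could be refitted without dim probes and were again called, with differences of -0.57 and -0.48 and adjusted p of 0.024 and 0.043 in limma. They lost the call in 13 and 11 of 25 settings, among them normexp (-0.22 and -0.18, adjusted p of 0.0903 and 0.0849 in limma) and the authors' deposited values (-0.19 and -0.17). At chr1:232623309-232625024 the outer parts minus the middle came to -0.15 in the MeDIP signal and -1.40 in the input (log2, all arrays). Both signals were thus brighter in the middle of that region, the input more so.

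The direction of these calls turned with the scaling. With quantile normalisation 16 members were called, 13 deeper and 3 shallower in diabetic rats, of which 5 were among the 14, and with loess 72 were called, 8 deeper and 64 shallower. In the authors' deposited values 90 were deeper and 39 shallower, and after subtraction of probe length 6 and 11. With normexp it was 18 deeper and 19 shallower, and without dim probes 10 and 16. Of all eligible runs these settings called 0.811% with quantile normalisation, 3.34% with loess and 6.52% in the authors' deposited values. The share was 0.89% after subtraction of probe length, 2.69% with normexp and 1.91% without dim probes. Of the 14 called, 12 held a probe not well above background on every array of control or of the diabetic groups, against 61.7% of all members. The count was 47, 43 and 39 without control replicate 1, DR model replicate 1 and DR model replicate 2 (1.8%, 2.1% and 2.34% of eligible runs). It was 1 to 4 without control replicates 2 or 3, CaD replicates 1 or 2 or any 1 other formula array. Without LTF replicate 1 it was 7.

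Flank level differed between the diabetic groups and control in 116 members, 88 higher and 28 lower, which is 7.33% of the members beside 6.94% of eligible runs. The 4 leading regions were all low-ratio regions whose flanks were less low in diabetic rats. At chr3:71137523-71139031 the flanks stood at -1.92, -1.92 and -2.25 in control, -1.66, -1.79 and -1.38 in DR model rats, -1.12, -0.95 and -1.44 in CaD rats, -1.37, -1.17 and -1.11 under the other formula and -0.98, -0.75 and -1.26 under LTF, a difference of 0.78 ± 0.12 (SE; adjusted p of 0.0025 in limma). All control rats lay below all diabetic rats, while the dip itself was 0.37 to 0.48 in control and 0.36 to 1.40 in diabetic rats.

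At chr1:147090388-147092022 the flanks were -1.16, -1.0 and -1.24 in control and -0.81 to -0.52 in the diabetic rats (difference 0.46 ± 0.06 SE), at chr3:69038998-69040664 they were -1.02, -0.91 and -1.03 beside -0.78 to -0.42 (0.43 ± 0.06), and at chr1:61271354-61272959 -1.42, -1.48 and -1.44 beside -1.41 to -0.44 (0.52 ± 0.08). The adjusted p was 0.0016, 0.0019 and 0.0042 in limma. All 4 regions were called again with scan as a random block, with adjusted p of 0.010 to 0.044, where 19 members in all were called, 13 higher and 6 lower. Under normexp all 4 were called with differences of 0.11 to 0.31. In all 4 at least 1 flank probe was not well above background on any control array, and of the 116 members 69 held such a probe in control or in the diabetic groups, against 36.6% of all members. With quantile normalisation 48 were called, 28 higher and 20 lower, with loess 272, 153 higher and 119 lower, after subtraction of probe length 80, 45 and 35, and in the authors' deposited values 205, 132 and 73. Of all eligible runs these settings called 2.72%, 17.4%, 5.38% and 11%. The count was 20 without control replicate 3, 206 without DR model replicate 2 and 73 without CaD replicate 2. With those arrays left out in turn, 1.25%, 12% and 3.96% of eligible runs were called.

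Over all members, the median difference in dip depth was 0.03 for the DR model against control, -0.14 for CaD, -0.14 with the other formula and -0.07 under LTF against the DR model, and -0.06 for the diabetic groups against control. Over all eligible runs these medians were 0.00, -0.03, -0.03, -0.03 and -0.02. In the 964 runs with a central rise, where a negative dip depth is a rise, they were -0.03, 0.13, 0.14, 0.10 and 0.06, the opposite sign in every comparison, so dips and rises were both flatter or both deeper in the same comparisons. After quantile normalisation the member medians were 0.05, 0.00, -0.01, 0.01 and 0.05, and the shift of the treated groups from the DR model was no longer there. Within the scan that CaD and the DR model shared, the member median for CaD was -0.02. With scan as a fixed block it was -0.05 for the other formula. Of the DR model arrays, both values rest on replicate 3 alone. No DR model array shared a scan with the other formula, so its value also rests on CaD replicate 3, which did.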

How the data were processed

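MeDIP and input DNA were hybridised to 2-colour Agilent arrays, MeDIP in red (Cy5) and input in green (Cy3), 1 array for each of 15 rats. Signal intensities were background-subtracted and dye-normalised by Agilent Feature Extraction 11.0.1.1 before deposit, per the file headers, which give probe positions on rn4. The deposited files' own log10 ratios, red over green, were checked against these signals, and 99.6% of 2590040 spots agreed within 0.01 on the log2 scale. Values in the authors' deposited table were read as log2 ratios, though the sources used here do not give their scale; the submitters' processing notes name limma.

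Here log2(red/green) of the processed signals was computed, outlier spots were left out, and each array was centred on its median. Members and lists were chosen with earlier results of these data known. Dip depth and flank level were fitted in limma 3.58.1 (R 4.3.3) as 5 group means over all 15 arrays, with Benjamini-Hochberg adjustment over all eligible runs. Named regions are the 6 deepest, the 3 nearest each side of the threshold, the 4 deepest after subtraction of probe length and the 2 that fell most with it, and for each comparison up to 4 called members, or the 2 with the smallest p where none was called. Alternatives were outlier spots kept, normexp (offset 50), loess, quantile normalisation, probe length subtracted, the authors' table, scan or replicate number as a block, single arrays left out, and other forms of the rule. Those without dim probes, without both arrays scanned alone and without the lowest middle probe were chosen after seeing the data. Samples with the same replicate number did not deviate together (no pair of groups had a correlation over 0.1), so the numbers were not taken as pairs. The number of arrays limits the precision: the median SE of a difference in dip depth was 0.19 over the members.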

Additional observations from a re-analysis of the deposited data

How the results depend on the processing

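With 3 arrays a group, dim middle probes and groups tied to scans, the counts of called members moved with most settings; the cause was not tested. The treated groups were compared with the DR model, and the diabetic groups with control. For dip depth of the DR model against control, scan as a fixed block and the fit within scan 5 each called 9 members. Normexp called 13 for CaD, 31 for the other formula, 110 for LTF and 37 for the diabetic groups against control. Of all eligible runs it called 1.17%, 2.8%, 6.47% and 2.69%. The authors' deposited table gave 11, 52, 48 and 129 for the same 4, beside 0.961%, 3.38%, 3.03% and 6.52% of eligible runs. Outlier spots kept gave 2 for the other formula and 36 for the diabetic groups, beside 0.063% and 1.9% of eligible runs. Loess gave 1 and 72, beside 0.0236% and 3.34%, and quantile normalisation 2 for the other formula, beside 0.157%. Scan as a random block gave 0 for LTF and 1 for the diabetic groups, beside 0.0158% and 0.0473% of eligible runs. Leaving out both arrays scanned alone gave 13 and 79, beside 1.31% and 3.14%. Without dim probes the counts were 19 for the other formula, 64 for LTF and 26 for the diabetic groups. Of the eligible runs left, 1.41%, 4.79% and 1.91% were called.

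For flank level, the DR model against control had 4 called members with loess, 1 in the authors' deposited table, 4 with scan as a fixed block and within scan 5, and 3 without both arrays scanned alone. For that comparison 0.449% of eligible runs were called with loess, 0.0787% in the authors' deposited table and 0.417% without both arrays scanned alone. CaD had 16 in the authors' deposited table (0.646% of eligible runs) and 2 without dim probes (0.303% of those left). The other formula had 2 with outlier spots kept, 11 with normexp, 2 with probe length subtracted, 34 in the authors' deposited table and 29 without dim probes. In the same order 0.0709%, 0.362%, 0.0866%, 1.63% and 1.98% of eligible runs were called. The count was 0 with loess, quantile normalisation, either scan block or both arrays scanned alone left out. LTF had 65 with outlier spots kept, 78 with normexp, 22 with quantile normalisation and 66 with probe length subtracted. It had 0 with scan as a random block, 12 without both arrays scanned alone and 68 without dim probes. In the same order 2.83%, 3.97%, 1.15%, 3.26%, 0.00788%, 0.575% and 5.29% of eligible runs were called. The diabetic groups had 192 with normexp, 272 with loess, 48 with quantile normalisation and 205 in the authors' deposited table. They had 19 with scan as a random block and 69 without dim probes. In the same order 10.9%, 17.4%, 2.72%, 11%, 1.09% and 7.78% of eligible runs were called.

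The replicate number was also used as a block, which the pairing check does not bear out. In dip depth it called 6 members for LTF and 6 for the diabetic groups (0.788% and 0.323% of eligible runs). In flank level it called 0 for the other formula, 19 for LTF and 80 for the diabetic groups (0%, 0.685% and 4.45%). No fit with scan as a fixed block was possible for LTF or for the diabetic groups against control, because their contrasts cannot be estimated beside scan.

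Leaving out 1 array at a time gave 0 to 1 called members in dip depth for the DR model against control, 0 to 75 for CaD, 0 to 75 for the other formula, 2 to 89 for LTF and 1 to 47 for the diabetic groups. In flank level it gave 0 to 2, 0 to 137, 0 to 144, 0 to 166 and 20 to 206. At the highest counts for dip depth 0.0236%, 2.87%, 2.99%, 4.35% and 1.8% of eligible runs were called. At those for flank level it was 0.291%, 7.19%, 7.1%, 8.31% and 12%. The number of member regions was 1540 to 1607 and their median dip 1.01 to 1.03.

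The number of member regions was 240 with normexp, 394 in the authors' deposited table, 964 without dim probes, 2502 at a threshold of 0.3, 956 at 0.7, 704 without the lowest middle probe and 356 with loess, length subtraction and that probe's removal together. The median dip was 0.43 with normexp, 0.71 with loess, 0.81 with probe length subtracted, 0.52 in the authors' deposited table and 0.80 with runs divided by probe rank. Dips ran smaller under normexp and in the authors' deposited table, so the same cut of 0.5 was stricter there. At chr1:96527423-96529057 the dip turned to -0.37 with probe length subtracted. Of 678 values for the 27 tested differences of named regions, 575 kept their direction and side of the threshold, 84 lost the call, 19 gained it and 0 changed direction. These differences were picked by smallest p on the same arrays, so keeping their direction was largely given. Keeping the side of the threshold includes regions that were not called and stayed so.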

Other observations

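Regions with a central dip did not follow one another more often than other runs did: the next eligible run was a member for 12.5% of the members and for 12.4% of the other runs, and the longest string of consecutive members was 4. Chromosome 5 had the highest share of members among its eligible runs (116 of 765, 15.2%) and chromosome X the lowest (35 of 434, 8.06%). A dip was still present by the same rule after loess, after subtraction of probe length and without the lowest middle probe in 356 members (22.5%). Of these, 130 also met it with normexp and 121 of those in the authors' deposited table, where dips ran smaller and the cut was the same. The deepest of these 121, a list chosen after its values were seen, were chr13:12904622-12906219, chr7:120429591-120431267, chr8:80377498-80379234 and chr11:76686138-76687698. All but the region on chromosome 7 held 1 middle probe never well above background in MeDIP.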
